A study of Arabidopsis thaliana with 24 samples.

Results

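The plastid and mitochondrial genome loci of Arabidopsis thaliana were examined in small RNA from inflorescences. Members were chosen by locus identifier alone: an identifier starting with ATCG marks the plastid genome and one starting with ATMG the mitochondrial genome. The rule found 136 of the 14888 loci in the authors' deposited table, of which 103 are plastid and 33 mitochondrial. They account for 157 of its 28194 entries, 112 plastid and 45 mitochondrial. By the annotated locus type, the plastid members are 71 protein-coding, 26 tRNA and 6 rRNA loci, and the mitochondrial members are 28 protein-coding, 3 tRNA and 2 rRNA loci.

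The study compared mutants of RNA tailing and RNA decay. URT1 and HESO1 add nucleotides, mainly uridines, to RNA 3′ ends. RRP4 belongs to the core of the RNA exosome, which degrades RNA from the 3′ end, SKI2 is the RNA helicase of the complex that assists the exosome in the cytoplasm, and DCL2 is one of the Dicers that cut double-stranded RNA into siRNAs. There are 24 labelled libraries, 3 for each of 8 genotypes, all from inflorescences of soil-grown plants. These groups are rrp4-2/urt1-1/dcl2CRISPR, whose dcl2 allele is named for genome editing, rrp4-2/urt1-1/heso1-4, heso1-4/urt1-1, rrp4-2, ski2-5, urt1-1, heso1-4 and the wild type Col-0, the accession whose background the mutants share. The authors' deposited table holds 13 mutant lines, several of them second alleles or further lines. Names such as rrp4urt1dcl2het and rrp4urt1dcl2.B9 are kept here as the table writes them. Which of these 2 lines is the labelled dcl2CRISPR group was not settled, nor whether het means a heterozygous dcl2 allele. No line is written as heso1-4 either, and whether GKheso1 is that allele was not settled. The table names no reference, and the wild type Col-0 is taken as the reference. The 3 samples of a group are called biological replicates by the submitters, with no word on whether they share plants or trays. How many libraries stand behind rrp4urt1dcl2het and the lines without a label was not settled. The p-values rest on the spread between libraries as the authors estimated it. Which libraries entered that estimate is not given in the sources used here.

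Plastids and plant mitochondria keep small genomes of bacterial origin, with genes for photosynthesis or respiration, for ribosomal proteins and for tRNAs and rRNAs. Most of the plastid genome is transcribed in long precursors that are cut and trimmed by ribonucleases imported from the cytosol. The exosome and the cytoplasmic tailing enzymes act on nuclear and cytosolic RNA. Small RNA reads from organelle genomes are mostly fragments of tRNA, rRNA and mRNA, some of them the stretches covered by RNA-binding proteins, and are not known as products of Dicer.

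The members' own sequences show 2 features that bear on how their reads are counted. The first is the plastid inverted repeat, which in the RefSeq genome (TAIR10.1) spans Pltd:84171-110434 and Pltd:128215-154478. These 2 arms of 26264 bases are 100% identical, so a read from one cannot be told from a read from the other. The start of a ribosomal protein gene inside the repeat is shown because its copies carry the same bases, with the ATG in capitals and the rest in lower case. The gene rpl2, given by the annotation as ribosomal protein L2 and as the match of ATCG01310, has 2 copies of 1507 bases with the same sequence. The first 120 bases stand at Pltd:85724-85843 on the minus strand and at Pltd:152806-152925 on the plus strand:
rpl2: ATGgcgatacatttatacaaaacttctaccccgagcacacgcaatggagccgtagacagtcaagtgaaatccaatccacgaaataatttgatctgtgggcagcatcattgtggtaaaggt

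In the authors' deposited table, 15 pairs of plastid loci, 30 loci in all, had the same mean normalised count within 1% and the same log2 fold change within 0.01 in each line that lists them. Of these pairs, 9 were identical in every deposited value. The 103 plastid members are therefore 88 distinct profiles, while the 33 mitochondrial members are 33. Members of a pair are not independent of each other.

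The second feature is the long copy of the mitochondrial genome in nuclear chromosome 2. Aligning the mitochondrial genome of 367808 bases to the nuclear chromosomes gave 12 alignments of at least 5000 bases between chr2:3239038 and chr2:3509765, at 99.874% to 99.972% identity. Alignments of any length covered 272167 bases of chromosome 2 and no more than 4455 bases of any other chromosome. The plastid genome had only short nuclear matches, 4107 bases on chromosome 2 and at most 1770 bases elsewhere. Copies of 3 mitochondrial genes are shown because they bear on the mitochondrial values given further on. A cysteine tRNA gene, trnC(GCA), at MT:42546-42616 and the nuclear tRNA locus AT2G07763 at chr2:3495442-3495512, both on the plus strand, are the same over 71 bases:
trnC(GCA) and AT2G07763: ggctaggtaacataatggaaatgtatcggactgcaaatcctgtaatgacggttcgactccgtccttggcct
A serine tRNA gene, trnS(TGA), is the same over 87 bases in the nuclear loci AT2G07793 at chr2:3369354-3369440 and AT2G07766 at chr2:3503522-3503608, whose counterparts are MT:264335-264421 on the minus strand and MT:50626-50712 on the plus strand:
trnS(TGA), AT2G07793 and AT2G07766: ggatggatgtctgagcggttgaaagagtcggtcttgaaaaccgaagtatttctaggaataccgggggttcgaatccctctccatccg
The nuclear locus AT2G07715, which the annotation gives as the best protein match of ATMG00560, aligns to mitochondrial rpl2. In a window of 120 bases the nuclear copy at chr2:3411597-3411716 and the mitochondrial gene at MT:222074-222193, on the minus strand, differ at 2 positions, given in capitals:
AT2G07715: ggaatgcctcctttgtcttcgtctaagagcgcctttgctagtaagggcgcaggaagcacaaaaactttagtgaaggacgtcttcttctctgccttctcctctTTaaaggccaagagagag
mitochondrial rpl2: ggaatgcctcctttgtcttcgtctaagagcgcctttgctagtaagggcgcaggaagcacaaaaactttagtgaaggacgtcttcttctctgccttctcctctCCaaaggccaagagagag

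The authors' deposited table gives for each entry a mean normalised count of the locus, a log2 fold change of the mutant line over its reference, a p-value and an adjusted p from DESeq2, and it lists only entries with an adjusted p under 0.05. A locus is called lower or higher here where it is listed. No value of a single library was used here, so the depth of each library is unknown. The standard error (SE) printed with a log2 fold change was recovered from the deposited p. The listing is partial, with 50.9% to 82.8% of the ranks past the threshold in each line, so absence from the listing does not show that a locus kept its level. Among the mutated genes, small RNA of URT1 was listed lower in each of 7 lines named for a urt1 mutation other than urt1.2, and DCL2 was listed lower in rrp4urt1dcl2het but not in the other 3 lines named for a dcl2 mutation. HESO1 was listed higher in 3 lines named for a heso1 mutation, at 0.99 to 4.60 on the log2 scale in the authors' deposited table. The list of mutated genes held 4 genes, and none but URT1, DCL2 and HESO1 was listed in any line. The small RNA over a gene is not its mRNA.

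Organelle loci were listed in 5 of the 13 lines, and nearly all in one. In rrp4urt1dcl2het 101 of 103 plastid loci were lower and 0 higher, and 23 of 33 mitochondrial loci were lower and 8 higher. Over all tested loci of that line, 4.54% were listed lower and 9.65% higher, and the shares were 19.4% and 41.2% of the 14888 loci listed in any line. A locus is in the table only if at least 1 line lists it, and 94 plastid and 22 mitochondrial members are there through rrp4urt1dcl2het alone, so the shares of 103 and 33 are largely fixed by the listing. RefSeq annotates 129 plastid genes. Of the 9 plastid members that another line lists, 7 were lower and 0 higher in rrp4urt1dcl2het, and of 11 such mitochondrial members 3 were lower and 6 higher. Of all 10732 loci that another line lists, 9.77% were lower and 35.5% higher in rrp4urt1dcl2het. The 9 plastid members count near-identical pairs separately, and each was also lower in the other lines that list it. The 10732 loci were not matched to the members by direction in the other lines, so these shares are not on an equal footing. In rrp4urt1dcl2.B9, 3 plastid and 2 mitochondrial loci were lower and 2 mitochondrial loci higher, with 1.21% of all tested loci listed lower and 5.13% higher. In rrp4-2/urt1-1/heso1-4, 3 plastid loci and 1 mitochondrial locus were lower and 5 mitochondrial loci higher, beside 5.08% and 6.4% of all tested loci. In rrp4-2, 5 plastid loci and 1 mitochondrial locus were lower and 1 mitochondrial locus higher, beside 1.01% and 3.45%. In ski2-5, 2 mitochondrial loci were lower and no plastid locus was listed, beside 0.261% of all tested loci lower and 0.252% higher. No plastid locus was listed higher in any of the 13 lines.

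**Figure D1:**
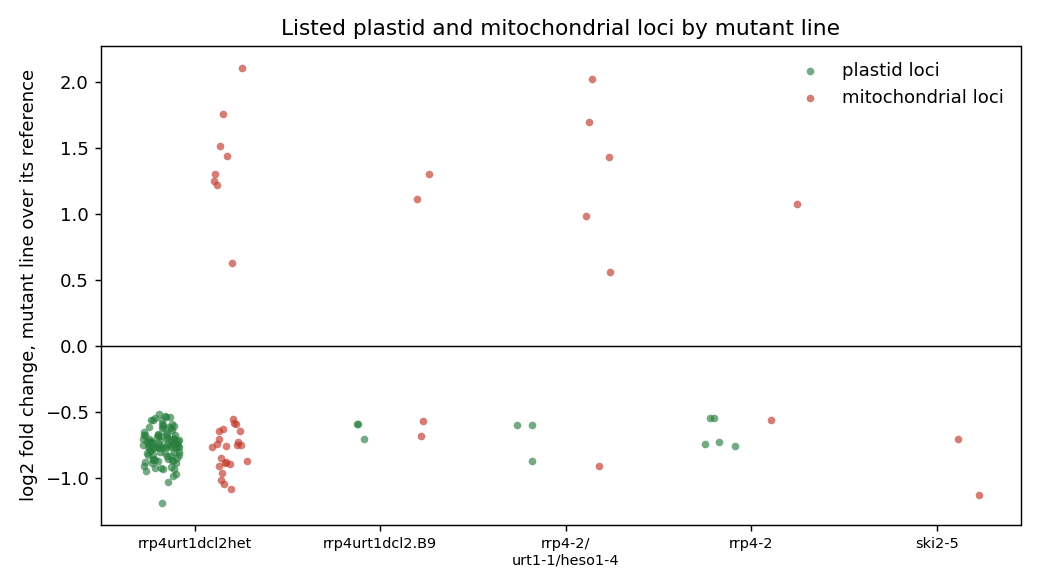
Log2 fold change of each listed plastid locus (green) and mitochondrial locus (red) in the 5 lines that list any; points are spread sideways for visibility only. In the 4 lines with an rrp4 mutation, plastid points lie below 0 and mitochondrial points lie on both sides. No plastid locus is listed in ski2-5.

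The other 8 lines listed no organelle locus. The share of all tested loci listed in either direction was 0.28% in GKheso1, 0.175% in heso1.3, 0.431% in urt1-1, 0.249% in urt1.2, 0.58% in heso1-4/urt1-1, 1.3% in ski2.2, 3.17% in ski2urt1dcl2.107 and 1.59% in ski2urt1dcl2.123. For a locus unlisted in a line, a limit was taken as the smallest change that would have been listed there. It is the quantile of the largest listed p times the median SE of the locus over the lines that list it. For 94 plastid loci that is the SE in rrp4urt1dcl2het alone. For the plastid loci of rrp4urt1dcl2het this limit had a median of 0.81 on the log2 scale in heso1.3 and 0.80 in GKheso1 and in urt1.2. It was lowest in rrp4-2/urt1-1/heso1-4, at a median of 0.58, where the rrp4urt1dcl2het value of 94 of 100 unlisted loci lay beyond it. It was 0.63 in rrp4urt1dcl2.B9 and 0.64 in rrp4-2, with 77 of 98 and 72 of 96 loci beyond it. At 0 plastid loci in any line was the value in rrp4urt1dcl2het farther from that limit than 1.96 SE of the difference. That SE takes the errors of the 2 lines as independent, and errors correlated through a shared reference would make it smaller. Under independent errors, the numbers of listed loci thus do not show a difference in size between lines at any single plastid locus. With correlated errors this was not tested. Of the mitochondrial loci, ATMG00560 was farther than this from its limit in 6 lines, urt1-1, heso1-4/urt1-1, ski2.2, ski2-5, ski2urt1dcl2.107 and ski2urt1dcl2.123. That holds only if its entry is not among those missing from the partial listing.

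The listed plastid values of rrp4urt1dcl2het lay in a narrow range. Their median log2 fold change was -0.74, or 59.7% of the reference level, and the SD over the 101 loci was 0.120, beside a median SE of a single locus of 0.216. The listing keeps only values at least 2.63 SE from 0, which cuts off smaller changes, so it narrows this spread and moves the median away from 0. Leaving 1 locus of each near-identical pair gave 87 loci with the same median of -0.74 and an SD of 0.124. The locus types lay close together, with a median of -0.75 for the 26 tRNA loci, -0.74 for the 69 listed protein-coding loci and -0.87 for the 6 rRNA loci. Only 2 of the 101 loci fell below -1. Across the 87 distinct loci the log2 fold change had a Pearson correlation of 0.07 and a Spearman correlation of 0.10 with the log10 mean normalised count. These loci share libraries and scaling, and the correlation is a description across loci.

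**Figure D2:**
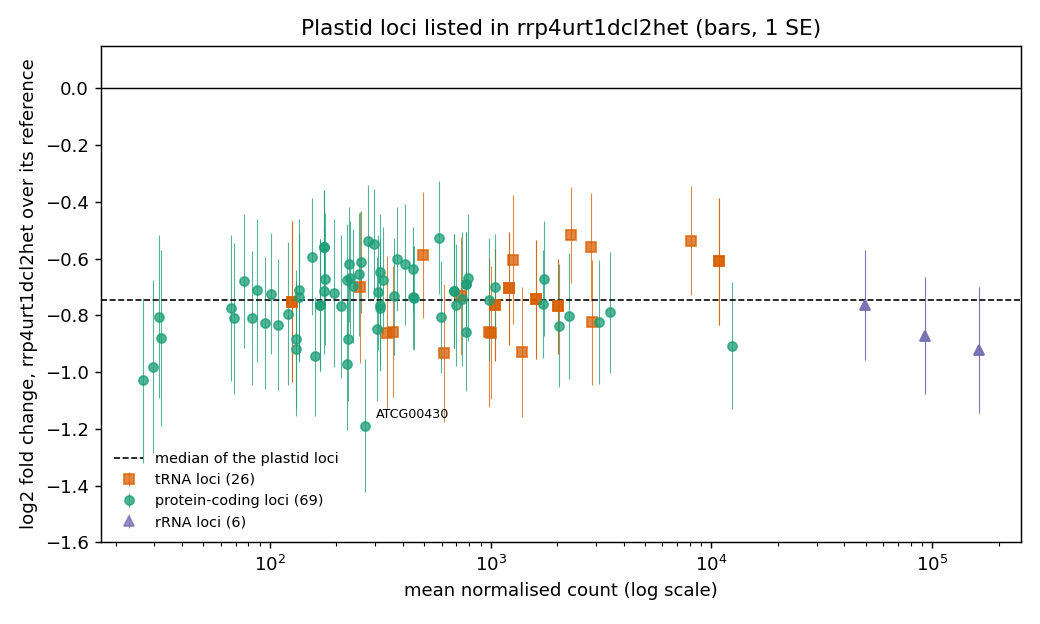
Log2 fold change in rrp4urt1dcl2het (vertical axis, bars 1 SE) of the 101 listed plastid loci by mean normalised count (horizontal axis, log scale), with symbols by locus type. The loci form a flat band around the dashed median of -0.74 from the lowest to the highest counts; values near 0 could not be listed.

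Nuclear loci moved in both directions in rrp4urt1dcl2het, with 1646 protein-coding loci listed lower and 1512 higher. How far the authors' scaling of the libraries sets the level of the organelle values was not tested, since no locus near 0 is listed. In all 2759 nuclear loci were listed lower, with a median of -0.85 and an SD of 0.443. Among the 621 of them with mean normalised counts in the middle range of the plastid loci, 176 to 1209, the median was -0.72. Nuclear tRNA loci were 142 lower and 0 higher in rrp4urt1dcl2het, with a median of -0.71, and 15 of these lie in the chromosome 2 insertion. The 4 listed nuclear rRNA loci were lower with a median of -0.92.

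The rRNA loci hold most of the plastid reads. With each near-identical pair counted once, the 3 rRNA profiles make up 78.2% of the summed mean normalised counts of the listed plastid loci; these counts are not per length. In the authors' deposited table the pair ATCG00950 and ATCG01180 had a mean normalised count of 162619 and log2 fold changes of -0.92 each in rrp4urt1dcl2het (SE 0.22). The pair ATCG00920 and ATCG01210 had 93283 and -0.87 in the authors' deposited table. The pair ATCG00970 and ATCG01160, at 49900, was listed in 2 lines, with -0.76 in rrp4urt1dcl2het and -0.59 in rrp4urt1dcl2.B9 (SE 0.19 each) in the authors' deposited table. The difference between these 2 lines was -0.18 (95% interval -0.71 to 0.36). Among the tRNA loci of rrp4urt1dcl2het, the lowest log2 fold change in the authors' deposited table was -0.93 ± 0.24 (SE) at ATCG00370 and the highest -0.52 ± 0.17 (SE) at ATCG00100.

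Among plastid protein-coding loci, ATCG00430 stood lowest in rrp4urt1dcl2het and was the only plastid locus listed in 4 lines. An annotation note of a nuclear gene names it photosystem II reaction center protein G, and this name was not checked further. Its log2 fold change in the authors' deposited table was -1.19 ± 0.23 in rrp4urt1dcl2het, -0.70 ± 0.23 in rrp4urt1dcl2.B9, -0.87 ± 0.24 in rrp4-2/urt1-1/heso1-4 and -0.73 ± 0.23 in rrp4-2 (SE), at a mean normalised count of 270. These 4 lines carry an rrp4 mutation by name and are taken to share the reference libraries. The value in rrp4urt1dcl2het was lower than in rrp4urt1dcl2.B9 by a difference of -0.49 (95% interval -1.14 to 0.16, adjusted p = 0.555 by the two-sided z test across all shared loci), which did not pass. The nuclear gene whose best protein match is ATCG00430, AT5G11770, was listed in rrp4urt1dcl2het alone, at -0.66. The highest protein-coding value in rrp4urt1dcl2het was -0.53 ± 0.20 (SE) at ATCG01000 in the authors' deposited table.

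Few other plastid loci were listed outside rrp4urt1dcl2het. The annotation names ATCG01310 as rpl2 (a protein of the large ribosomal subunit), a gene with 2 identical copies in the repeat. Its near-identical partner ATCG00830 has no name in that annotation. This pair had -0.74 each in rrp4urt1dcl2het and -0.54 each in rrp4-2 in the authors' deposited table (SE 0.18). For ATCG00810 these values were -0.88 ± 0.24 in rrp4urt1dcl2het and -0.76 ± 0.24 in rrp4-2 (SE). The pair ATCG00870 and ATCG01270 was listed in rrp4-2/urt1-1/heso1-4 alone, at -0.60 ± 0.22 (SE) for each in the authors' deposited table. The other 2 members that the annotation names were listed in rrp4urt1dcl2het alone: ATCG00530, CemA-like, at -0.68 and ATCG00670, the plastid-encoded ClpP protease subunit, at -0.62 in the authors' deposited table. No plastid value in rrp4-2 passed an adjusted p under 0.01.

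Nuclear genes for proteins of photosynthesis were described from lists of 17 light harvesting genes and of 26 photosystem and Rubisco subunit genes. Over all tested loci of rrp4urt1dcl2het, of every locus type and count, 4.54% were listed lower and 9.65% higher. In this line 7 of 17 light harvesting genes were listed lower and 0 higher, with a median of -0.66. LHCB5, an antenna protein of photosystem II, was lowest at -0.81 and LHCA1, of the photosystem I antenna, highest at -0.61, both from the authors' deposited table. Of the photosystem and Rubisco list, 14 of 26 were lower and 0 higher in that line, with a median of -0.77. The lowest was RBCS1B, a small subunit of Rubisco, at -1.03 ± 0.21 (SE), and the highest PSAF, a photosystem I subunit, at -0.58 ± 0.22 (SE) in the authors' deposited table. In rrp4-2 RBCS1B and RBCS3B were also lower, at -0.81 and -0.65, in the authors' deposited table. PETE1, a plastocyanin, was listed higher in rrp4urt1dcl2.B9 at 0.80 and in rrp4-2 at 0.72 in the authors' deposited table, and it was also higher in rrp4-2/urt1-1/heso1-4. None of 13 nuclear genes for organelle transcription and RNA decay was listed in any line. The floral identity genes AP3, PI and LFY, 3 of 6 inflorescence markers, were also lower in rrp4urt1dcl2het, at -0.78, -0.89 and -0.94 in the authors' deposited table. PI was lower in rrp4-2 too, at -0.71, while AP1, AG and SEP3 were listed in no line. The part of tissue composition in the organelle values was not tested.

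The mitochondrial loci split in 2 directions. In rrp4urt1dcl2het the 23 lower loci had a median log2 fold change of -0.75, with an SD of 0.151 and a median mean normalised count of 221. The 8 higher loci, all protein-coding, had a median of 1.37 and a median mean normalised count of 11.8. The counts of 6 of these 8 lie at or under 14.2 and their SE reaches 0.63. Single higher loci are therefore less precise than the lower ones. Only values at least 2.63 SE from 0 are listed, so a locus with a large SE appears only with a large change. The 2 medians thus do not show that the higher loci changed more.

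**Figure D3:**
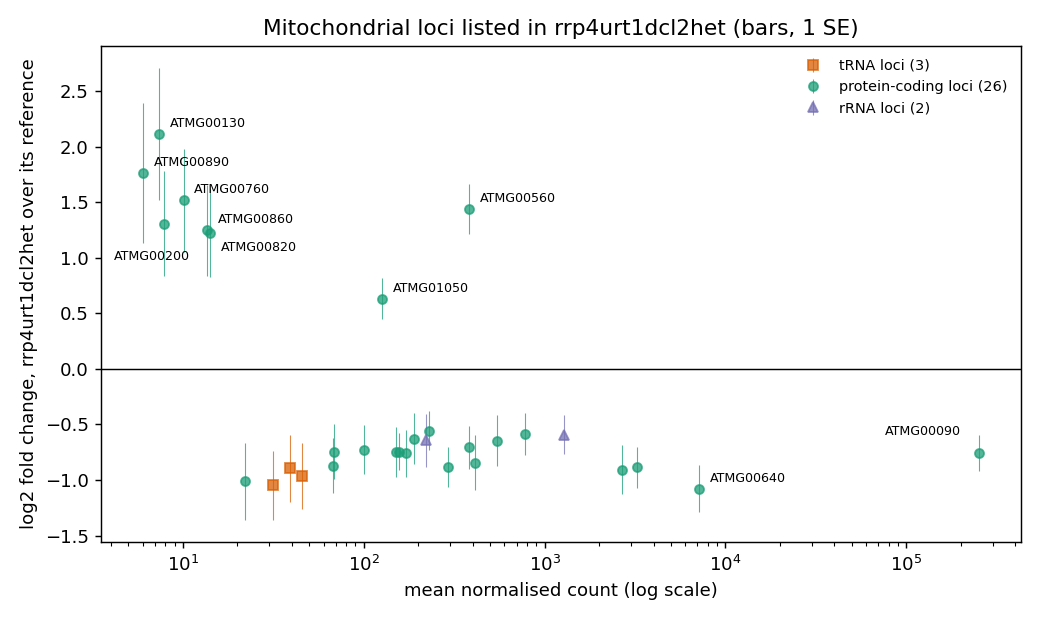
Log2 fold change in rrp4urt1dcl2het (vertical axis, bars 1 SE) of the 31 listed mitochondrial loci by mean normalised count (horizontal axis, log scale), with symbols by locus type. The 23 lower loci span counts from 22.0 to 251095, and 6 of the 8 higher loci lie at the far left.

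The lower mitochondrial loci include every listed tRNA and rRNA locus. The 3 tRNA loci ran from -1.05 ± 0.31 at ATMG00190 to -0.90 ± 0.30 at ATMG00360 (SE), in the authors' deposited table. The 2 rRNA loci were ATMG01390 at -0.64 ± 0.24 and ATMG00020 at -0.59 ± 0.18 (SE) in the authors' deposited table. ATMG00090 alone holds 93.0% of the summed mean normalised counts of the mitochondrial members, and the authors' deposited table gives it a count of 251095 and a log2 fold change of -0.75 ± 0.16 (SE) in rrp4urt1dcl2het, the only line that lists it. ATMG01260 and ATMG01320 (NADH dehydrogenase 2B, a subunit of respiratory complex I) were lower at -0.91 ± 0.22 and -0.71 ± 0.19 (SE) in the authors' deposited table.

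Some lower mitochondrial loci were listed in more than 1 line. ATMG00650, with a mean normalised count of 3231, had -0.89 ± 0.18 in rrp4urt1dcl2het, -0.57 ± 0.18 in rrp4urt1dcl2.B9 and -0.70 ± 0.18 in ski2-5 (SE) in the authors' deposited table. ATMG00640, at a count of 7115, was the lowest protein-coding mitochondrial locus of rrp4urt1dcl2het with -1.08 ± 0.21 and had -0.68 ± 0.21 in rrp4urt1dcl2.B9 (SE) in the authors' deposited table. ATMG00940 had -0.88 ± 0.18 in rrp4urt1dcl2het and -0.56 ± 0.18 in rrp4-2 (SE) in the authors' deposited table. ATMG00040 was listed in ski2-5 alone, at -1.13 ± 0.28 (SE), and ATMG01090 in rrp4-2/urt1-1/heso1-4 alone, at -0.90 ± 0.24 (SE), in the authors' deposited table. ATMG01090 has the name ATP synthase 9 only through the annotation note of its nuclear match AT2G07777. The aligned part of AT2G07777 overlaps no named mitochondrial gene, while that of AT2G07671 overlaps atp9.

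Of the higher loci, ATMG00560 was the only one listed in 4 lines, and its mean normalised count was 382. The annotation describes it as a nucleic acid-binding, OB-fold-like protein, and its chromosome 2 match AT2G07715 aligns to mitochondrial rpl2, shown earlier. Its log2 fold change in the authors' deposited table was 1.44 ± 0.23 in rrp4urt1dcl2het, 1.11 ± 0.23 in rrp4urt1dcl2.B9, 0.99 ± 0.23 in rrp4-2/urt1-1/heso1-4 and 1.08 ± 0.23 in rrp4-2 (SE). AT2G07715 itself was listed in no line. ATMG01050, at a count of 127, was higher in rrp4urt1dcl2het by 0.63 ± 0.18 and in rrp4-2/urt1-1/heso1-4 by 0.56 ± 0.19 (SE) in the authors' deposited table.

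The remaining higher loci have low counts. ATMG00130 had 2.11 ± 0.59 in rrp4urt1dcl2het and 1.70 ± 0.62 in rrp4-2/urt1-1/heso1-4 (SE) at a count of 7.36 in the authors' deposited table. ATMG00890 had 1.76 ± 0.63 in rrp4urt1dcl2het and 2.03 ± 0.65 in rrp4-2/urt1-1/heso1-4 (SE) in the authors' deposited table. ATMG00760 had 1.52 ± 0.47 in rrp4urt1dcl2het and 1.43 ± 0.49 in rrp4-2/urt1-1/heso1-4 (SE) in the authors' deposited table. ATMG00820 had 1.22 ± 0.40 in rrp4urt1dcl2het and 1.31 ± 0.40 in rrp4urt1dcl2.B9 (SE) in the authors' deposited table. ATMG00860 and ATMG00200 were listed in rrp4urt1dcl2het alone, at 1.25 and 1.31 in the authors' deposited table.

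**Figure D4:**
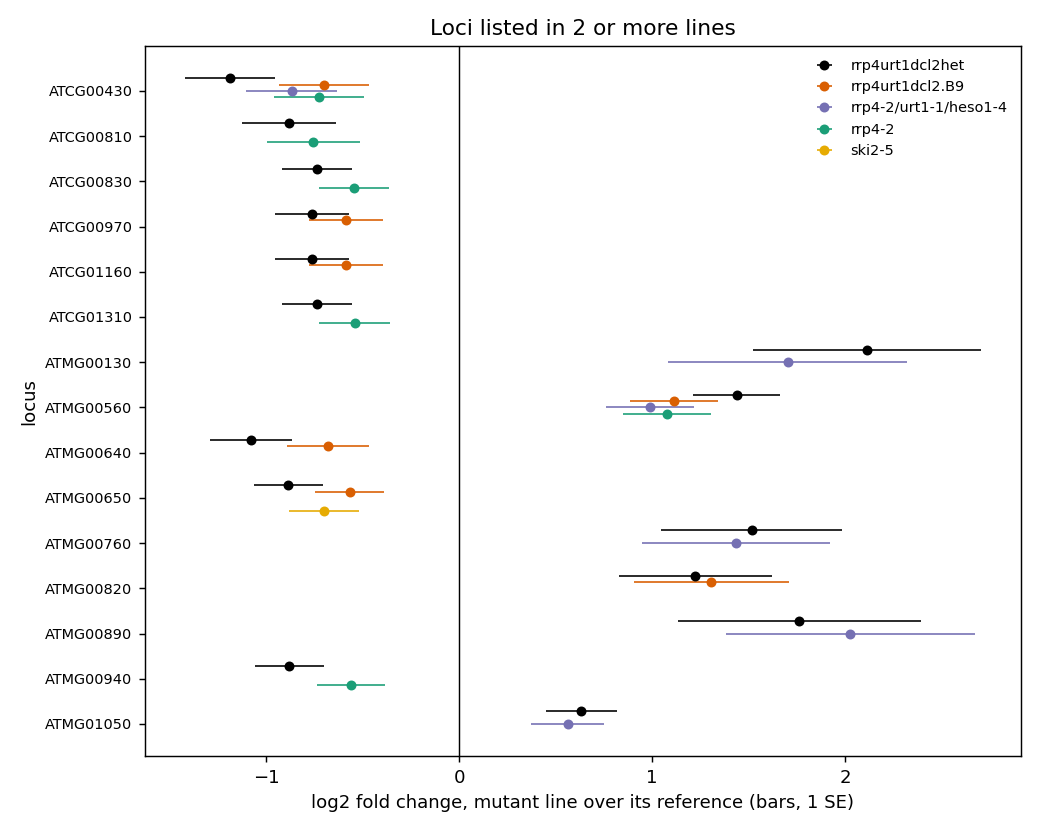
Log2 fold change (horizontal axis, bars 1 SE) of loci listed in 2 or more lines, with 1 colour for each line. No plotted locus changes sign between the lines that list it, and the bars of most loci overlap.

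Differences between rrp4urt1dcl2het and each of the other 12 lines were tested over all loci listed in both, with a two-sided z test and Benjamini-Hochberg adjustment, and 4 of these pairs share organelle loci. None of these loci passed the test. It covers only loci that passed the threshold in both lines, and the SE of a difference ran from 0.253 to 0.902, so sizable differences could be missed. With rrp4urt1dcl2.B9, 0 of 7 members passed, beside 6.54% of all shared loci (lowest adjusted p = 0.555). With rrp4-2/urt1-1/heso1-4 it was 0 of 6, beside 11.6% (lowest adjusted p = 0.466). With rrp4-2 it was 0 of 7, beside 5.23% (lowest adjusted p = 0.713). With ski2-5 the 1 shared member, ATMG00650, had a difference of -0.18 (95% interval -0.69 to 0.32, adjusted p = 0.730), beside 21.6%. No member reached an unadjusted p under 0.05 in these 4 comparisons. For ATMG00560 the difference of rrp4urt1dcl2het from rrp4urt1dcl2.B9 was 0.33 (95% interval -0.30 to 0.95).

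The nuclear loci in the chromosome 2 insertion give a further reading of mitochondrial sequence. The annotation has 185 loci that lie in it with at least 90% of their length aligned, and 83 are in the authors' deposited table. In rrp4urt1dcl2het 58 were lower with a median of -0.70 and 19 higher with a median of 1.14. Of all tested loci in that line, 4.54% were listed lower and 9.65% higher. The 83 loci are present only because at least 1 line lists them, so shares of 83 are largely fixed by the listing. Of the 38 listed loci whose aligned part overlaps a named mitochondrial gene, 38 were lower and 0 higher. Of the 39 whose aligned part overlaps none, 20 were lower and 19 higher. The median mean normalised count was 709 for the 38 loci, and it was 122 for the 20 lower and 40.0 for the 19 higher loci that overlap no gene. This split was noticed in the data and was not tested, and the groups also differ in count.

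**Figure D5:**
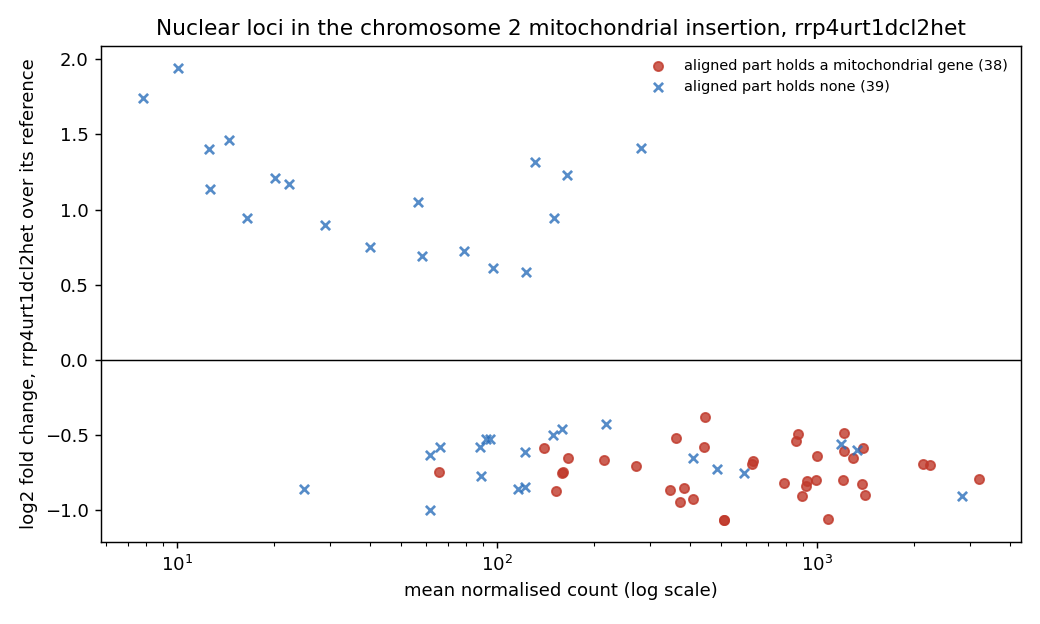
Log2 fold change in rrp4urt1dcl2het (vertical axis) of the 77 listed nuclear loci in the chromosome 2 insertion by mean normalised count (horizontal axis, log scale); circles mark loci whose mitochondrial counterpart holds a named gene. All 38 circles lie below 0, and the 19 points above 0 are crosses with counts from 7.83 to 282.

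Fewer insertion loci were listed in other lines. Of the insertion loci that overlap a mitochondrial gene, 6 were lower and 0 higher in rrp4urt1dcl2.B9, 3 and 0 in rrp4-2/urt1-1/heso1-4, 5 and 0 in ski2-5, and 1 and 0 in ski2urt1dcl2.107. Of those that overlap none, 0 were lower and 8 higher in rrp4urt1dcl2.B9, 3 and 14 in rrp4-2/urt1-1/heso1-4, 2 and 3 in rrp4-2, 3 and 1 in ski2urt1dcl2.107, and 1 and 0 in ski2urt1dcl2.123. These lines are taken to share the reference libraries. Of all tested loci, 1.21% were listed lower and 5.13% higher in rrp4urt1dcl2.B9, 5.08% and 6.4% in rrp4-2/urt1-1/heso1-4, and 1.01% and 3.45% in rrp4-2. The shares were 0.261% and 0.252% in ski2-5, and in either direction 3.17% in ski2urt1dcl2.107 and 1.59% in ski2urt1dcl2.123. Loci of the same sequence, such as AT2G07793 and AT2G07766, were counted separately in all insertion counts. Copies of mitochondrial tRNA genes recur among the lower loci. AT2G07763, the copy of trnC(GCA) shown earlier, was lower by a log2 fold change of -1.06 in rrp4urt1dcl2het, -0.98 in rrp4urt1dcl2.B9, -0.98 in rrp4-2/urt1-1/heso1-4, -1.24 in ski2-5 and -0.94 in ski2urt1dcl2.107 in the authors' deposited table. The identical trnS(TGA) copies AT2G07793 and AT2G07766 had mean normalised counts of 512 each and -1.06 each in rrp4urt1dcl2het, -0.85 each in rrp4urt1dcl2.B9, -0.76 each in rrp4-2/urt1-1/heso1-4 and -1.17 each in ski2-5 in the authors' deposited table. In ski2-5 the tRNA copy AT2G07794, overlapping a mitochondrial isoleucine tRNA gene, and the nad6 pseudogene AT2G07731 were lower too, at -1.24 and -0.90 in the authors' deposited table. How reads that match both genomes were assigned is not given in the sources used here, so reads of the 2 genomes cannot be told apart at these loci.

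Annotated nuclear partners of single mitochondrial members went both ways. ATMG00370 (a Ycf1 protein by annotation) and its nuclear match AT2G07739 were lower together in rrp4urt1dcl2het, at -0.74 and -0.87, with mean normalised counts of 157 and 153 in the authors' deposited table. ATMG01260 was lower at -0.91 while its annotated pseudogene AT2G07813, at a count of 22.3, was higher at 1.17 in that line in the authors' deposited table. ATMG01090 was listed in rrp4-2/urt1-1/heso1-4, whereas its match AT2G07777 was listed in rrp4urt1dcl2het, at -0.60 in the authors' deposited table.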

How the data were processed

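Small RNA libraries of inflorescences were made from total RNA with a small RNA kit and gel size selection, per the labels' protocols. Per the submitters' processing notes, the tools were STAR 2.6.0a, cutadapt 2.4, DESeq2 and Subread 1.6.3 (featureCounts) with the TAIR10 build; order and parameters are not given in the sources used here. The signal of a locus is a mean normalised count deposited by the authors, the log2 fold changes are the authors' own, per the file headers, and the p-values and adjusted p-values were deposited by the authors.

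From these, the standard error of an entry was recovered by dividing its log2 fold change by the z value of its two-sided p, and the number of tested loci from the ratio of p to adjusted p. This recovery and the z test were tested on simulated data. For the z test the planted differences were larger than any member difference reported here, with independent errors and no listing threshold. That simulation therefore does not measure the power of the test in these data. Table lines and labels were matched only by their names, and each comparison is the authors' DESeq2 test. Organelle copies were found with BLAST+ (at least 95% identity, E value under 1e-20) in the RefSeq genome TAIR10.1; its organelle genes carry no ATCG or ATMG identifiers, so member positions are not given, and 11 members were named through annotation notes of nuclear genes. Functional groups by gene symbol could not be formed, and locus types were used in their place. Named loci are the extremes of each locus type in rrp4urt1dcl2het, all members listed in 3 or more lines, all members of an organelle where a line lists 10 or fewer, the 5 of highest count in each organelle and genes of the fixed lists; loci of the chromosome 2 insertion, annotated partners and other members were chosen after their values were seen, as was the tolerance for near-identical copies. The named result of a plastid locus is not reported here. The members and lists were chosen with earlier results of these data known. Alternatives changed the thresholds, the count minimum, the locus types, the copies, the centring and the errors. Python 3.11.15, pandas 2.3.3, numpy, scipy and matplotlib were used.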

Additional observations from a re-analysis of the deposited data

How the results depend on the processing

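No paired analysis was possible because the deposited values hold no single libraries, and for the same reason no library could be left out. With the adjusted p under 0.01, plastid loci lower were 64 in rrp4urt1dcl2het, 0 in rrp4urt1dcl2.B9, 1 in rrp4-2/urt1-1/heso1-4 and 0 in rrp4-2, and mitochondrial loci lower were 14 in rrp4urt1dcl2het and 0 in rrp4urt1dcl2.B9, rrp4-2 and ski2-5. Mitochondrial loci higher were then 3 in rrp4urt1dcl2het, 1 in rrp4urt1dcl2.B9 and 1 in rrp4-2/urt1-1/heso1-4. With an absolute log2 fold change of at least 1, lower loci in rrp4urt1dcl2het were 2 plastid and 3 mitochondrial, plastid loci lower were 0 in the other lines, mitochondrial loci lower were 1 in ski2-5 and 0 in rrp4urt1dcl2.B9, rrp4-2/urt1-1/heso1-4 and rrp4-2, and mitochondrial loci higher were 3 in rrp4-2/urt1-1/heso1-4. With a mean normalised count of at least 100, mitochondrial loci higher were 2 in rrp4urt1dcl2het, 1 in rrp4urt1dcl2.B9 and 2 in rrp4-2/urt1-1/heso1-4, and lower 0 in rrp4-2/urt1-1/heso1-4 and 1 in ski2-5. Without tRNA and rRNA loci, plastid loci lower were 1 in rrp4urt1dcl2.B9. Centred on all listed loci, mitochondrial loci higher were 1 in rrp4urt1dcl2het and 0 in rrp4urt1dcl2.B9, rrp4-2/urt1-1/heso1-4 and rrp4-2, and lower 0 in ski2-5. Centred on the listed nuclear protein-coding loci, lower loci in rrp4urt1dcl2het were 1 plastid and 0 mitochondrial, mitochondrial loci lower were 2 in rrp4-2/urt1-1/heso1-4 and 0 in ski2-5, and higher 0 in rrp4urt1dcl2.B9, rrp4-2/urt1-1/heso1-4 and rrp4-2. By the same constant shift ATMG00560 would be at -0.16 in rrp4-2/urt1-1/heso1-4 and -0.12 in rrp4urt1dcl2.B9, and ATMG00650 at 0.50 in ski2-5. Counting near-identical copies once kept all 13 counts within 1.5 times, and the 4 comparisons between lines had 0 members past the threshold under each alternative. Beyond what each alternative leaves out or shifts, the cause of these changes was not tested. Both centrings subtract 1 constant from all loci of a line, the median of listed loci alone; as no listed locus lies near 0, that median falls inside the direction with more listed loci, and the losses and sign changes follow from this construction and show nothing about the scale. Depth per library is unknown, and loci of low count carry the largest errors.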
